A study of Homo sapiens with 15 samples.

Results

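HDAC4, HDAC5, HDAC7 and HDAC9, the class IIa histone deacetylases, and MEF2A, MEF2B, MEF2C and MEF2D, the transcription factors they bind, are 8 of the 57773 genes counted in 15 bone marrow libraries. The families were taken whole. HDAC9 was chosen by its measured level, which was lower than in untreated animals with either of 2 drugs alone and closer to them with both, so its levels and differences are given as a description with no test. Of the 8 genes, 7 were among the 13085 genes with enough counts to be fitted; MEF2B, with 9 counts in all 15 libraries together, was not.

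The marrow came from SCID-beige mice, which have severely impaired lymphocytes, carrying MM.1S, an established human multiple myeloma cell line that was labelled with green fluorescent protein and luciferase. The cells were injected by vein, and a mouse was included when its bioluminescence had reached a set level. All 15 libraries therefore carry the same line, and the host adds mouse cells to the marrow.

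Controls, labelled PBS, were given saline by vein. The bortezomib group received this proteasome inhibitor at 0.25 mg/kg into the peritoneum once a week. The elesclomol group received this copper-binding compound at 25 mg/kg under the skin. The combination group received both drugs at those doses, and in the delayed combination group elesclomol began 14 days after inclusion. Each group holds 3 libraries, with 5 mice per group in the protocol. Femoral marrow was flushed when an animal became paralysed, so the time on treatment was not fixed and is not given for each library. The series describes 3 tumours per condition and gives no other source of the replicates, so p-values measure the spread between these libraries. No age is given in the labels.

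Class IIa deacetylases have little deacetylase activity of their own: they sit on DNA-bound MEF2 and bring corepressors with them. Kinases of the CaMK, PKD and SIK families phosphorylate them, 14-3-3 proteins then hold them in the cytoplasm, and MEF2 is freed to activate its targets. HDAC9 is itself known as a MEF2 target, which makes the pair a feedback loop, and MEF2C is known for its part in B cell development.

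Because HDAC9 and the MEF2 genes are linked in this way, the RefSeq promoter windows (GRCh38.p14, 250 bases before to 50 after each start) were searched for the MEF2 consensus, a 10-base AT-rich motif whose 2 strands read as the same set of sequences. The table held 23 windows for 7 of the 8 genes. The consensus occurred in 3 of them (13.0%), against 2.99% of all 35116 windows. By gene it occurred in 3 of 7 (42.9%), against 3.67% of 27305 genes. A gene with more windows has more places for a match, and these shares were not tested. The 3 windows are shown up to the start, or 2 bases past it where the match runs on, with the match in capitals. They are chr7:18086575-18086826 on the plus strand for HDAC9, chr15:99565734-99565983 on the plus strand for MEF2A and chr5:88824345-88824594 on the minus strand for MEF2C.
HDAC9: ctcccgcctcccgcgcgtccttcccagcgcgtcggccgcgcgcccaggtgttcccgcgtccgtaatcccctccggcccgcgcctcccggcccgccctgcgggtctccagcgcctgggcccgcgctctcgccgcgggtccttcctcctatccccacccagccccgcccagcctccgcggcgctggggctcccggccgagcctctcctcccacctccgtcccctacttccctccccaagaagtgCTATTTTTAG
MEF2A: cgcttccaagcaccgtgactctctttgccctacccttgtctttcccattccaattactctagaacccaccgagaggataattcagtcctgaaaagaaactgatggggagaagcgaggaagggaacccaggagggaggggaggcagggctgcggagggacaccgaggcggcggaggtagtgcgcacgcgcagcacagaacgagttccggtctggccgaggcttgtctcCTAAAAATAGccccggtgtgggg
MEF2C: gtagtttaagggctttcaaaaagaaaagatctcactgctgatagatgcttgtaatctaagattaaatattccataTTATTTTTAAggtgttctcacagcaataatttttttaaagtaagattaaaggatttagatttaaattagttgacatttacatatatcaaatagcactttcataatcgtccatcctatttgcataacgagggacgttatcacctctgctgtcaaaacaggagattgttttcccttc
The HDAC9 match begins 8 bases before the start and is the reverse complement of the MEF2A match, which begins 23 bases before its start. In MEF2C the match begins 175 bases before the start. The HDAC9 window is 1 of 5 for that gene and the MEF2C window 1 of 7. In both, the last 45 bases of the window were not found as 1 unbroken run in a GENCODE 29 transcript of the gene. The same was so for the only MEF2D window, and a short first exon would give this result too. The search therefore does not show that these starts are unused. The counts are per gene and do not tell starts apart, and a match is a description of the letters, not of binding.

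Libraries held 4500326 to 13161087 counts, with 4500326 to 6287708 in the PBS group and 11060930 to 13161087 in the delayed combination group. Bortezomib 1, combination 1 and delayed combination 2 were richer than the rest in reads of GC-rich genes: the correlation of a gene's deviation with its GC content was 0.51, 0.49 and 0.32 there, and -0.35 to -0.29 in the PBS libraries. All 10 plasma cell markers were detected, at a summed level of 13504 to 16748 CPM, which is a gene's count relative to the total of its library, scaled between libraries by TMM. Counts on the human genes used as markers of host marrow were low but not absent: the 8 erythroid markers summed to 11.2 to 37.6 CPM in the PBS, bortezomib, combination and delayed combination libraries, and up to 341 CPM in the elesclomol group. That highest value belonged to elesclomol 1, which stood apart, with a mean of 1.55 log2 CPM over host marrow markers against -0.34 to 0.26 in the other 14 libraries. The 7 stromal markers, all detected, summed to 42.7 to 67.9 CPM in the PBS libraries. Bortezomib libraries held 63.5 to 106 CPM of them, elesclomol libraries 76.3 to 123 CPM. Their sum was 61.9 to 109 CPM in the combination libraries, and the delayed combination reached the highest, at 82.4 to 192 CPM. In bulk marrow, fewer cells of a type and less RNA per cell cannot be told apart. Reads were counted on a human genome, and the handling of mouse reads is not given in the sources used here. The marker sums therefore do not measure how much mouse marrow a library held.

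Per kilobase of exon, MEF2C was the most abundant of the 8, at a mean of 44.96 CPM per kb over the 15 libraries, followed by MEF2D at 20.4. HDAC7 stood at 7.33, MEF2A at 6.24, HDAC9 at 4.24 and HDAC5 at 4.14 CPM per kb. HDAC4 was at 0.734 and MEF2B at 0.039 CPM per kb. MEF2C thus supplied most of the counted MEF2 message in this marrow, and HDAC7, HDAC9 and HDAC5 most of the counted class IIa message.

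HDAC9 (ENSG00000048052, chromosome 7) is known to repress MEF2 targets in muscle and lymphoid cells. Its level was 114, 85.3 and 98.7 CPM in the PBS libraries (99.5 ± 14.6, SD, n = 3). With bortezomib it was 70.5, 58.4 and 44.6 CPM (57.8 ± 13.0). With elesclomol it was 44.0, 46.5 and 40.3 CPM (43.6 ± 3.11). Every library with 1 drug lay below every PBS library, and elesclomol gave the lowest and most even values of the 5 groups.

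With both drugs HDAC9 stood higher again. The combination libraries were at 86.9, 92.6 and 71.8 CPM (83.8 ± 10.7), and the delayed combination libraries at 72.1, 62.8 and 82.0 CPM (72.3 ± 9.58). The combination overlapped PBS and lay wholly above both single drugs, while the delayed combination lay below PBS and overlapped bortezomib. As shares of the PBS mean, the groups stood at 84.2% (combination), 72.7% (delayed combination), 58.1% (bortezomib) and 43.8% (elesclomol). Each group overlapped its neighbour in that order, PBS included.

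**Figure D1:**
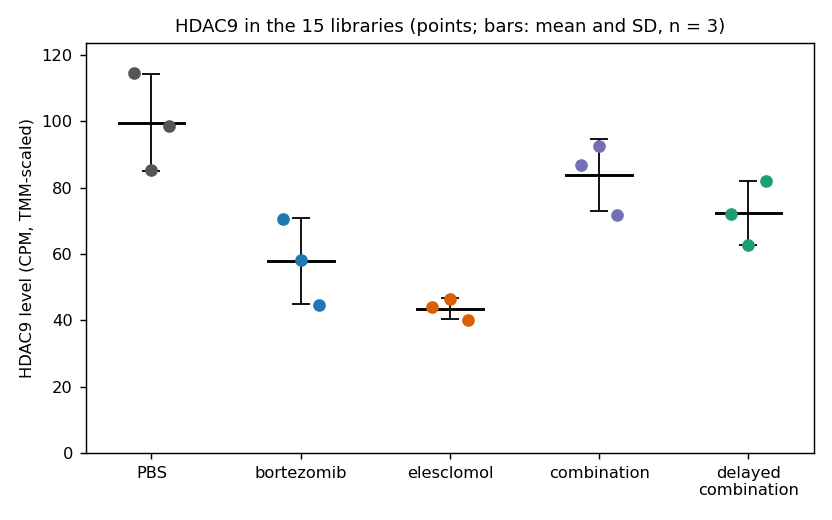
HDAC9 level in CPM (y axis) in the 5 groups (x axis), with 1 point per library and bars for the mean and SD of 3 libraries. Elesclomol libraries sit at 40.3 to 46.5 CPM and bortezomib libraries at 44.6 to 70.5, all below the PBS libraries, and the combination libraries at 71.8 to 92.6 CPM.

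On the log2 scale of the fit over all genes, HDAC9 was -0.78 ± 0.16 (SE) with bortezomib against PBS and -1.19 ± 0.16 with elesclomol. The share of all 13085 genes whose libraries lay wholly below PBS was 9.61% for bortezomib and 10.2% for elesclomol. For the combination against PBS the difference was -0.25 ± 0.16, and for the delayed combination -0.46 ± 0.16, where 14.7% of all genes lay wholly below PBS. These 4 comparisons share the 3 PBS libraries.

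Against the single drugs, the sign turned. The combination was 0.53 ± 0.16 above bortezomib, where 4.26% of all genes lay wholly higher, and 0.94 ± 0.16 above elesclomol, where 8.57% did. The delayed combination was 0.32 ± 0.16 above bortezomib and -0.21 ± 0.16 from the combination, with overlap in both. The first was 0.16 without bortezomib 3 and 0.49 without bortezomib 1, and the second -0.12 without delayed combination 2 and -0.017 by limma voom. The interaction, which is how far the combination departs from the sum of the 2 single-drug differences, was 1.72 ± 0.23.

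HDAC9 is a GC-poor gene (40.2% GC) and the GC-rich libraries are spread over 3 treated groups. After a correction for GC content and length the difference from PBS was -0.47 ± 0.24 for bortezomib, -1.12 ± 0.24 for elesclomol, 0.05 ± 0.23 for the combination and -0.20 ± 0.23 for the delayed combination, while the interaction was 1.64 ± 0.33. Without the 3 GC-rich libraries it was 1.86 ± 0.21. Without elesclomol 1, the library with host markers, the elesclomol difference was -1.20 ± 0.19, and HDAC9 in that library (44.0 CPM) lay between the other two.

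Of the other 6 fitted genes none passed the test in any comparison (edgeR quasi-likelihood test with Benjamini-Hochberg adjustment over all genes). With bortezomib against PBS, 0 of 6 were called and 1 had an unadjusted p under 0.05, where 0% of all genes were called and 1388 had such a p. For elesclomol the figures were 0 of 6 and 1, with 0.0688% of all genes called. For the combination they were 0 of 6 and 2, with 0% called, and for the delayed combination 0 of 6 and 0, with 0% called. DESeq2 also called 0 of the 6 in every comparison, and limma voom with quality weights called 1 in each of 3 comparisons, named with their values below.

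**Figure D2:**
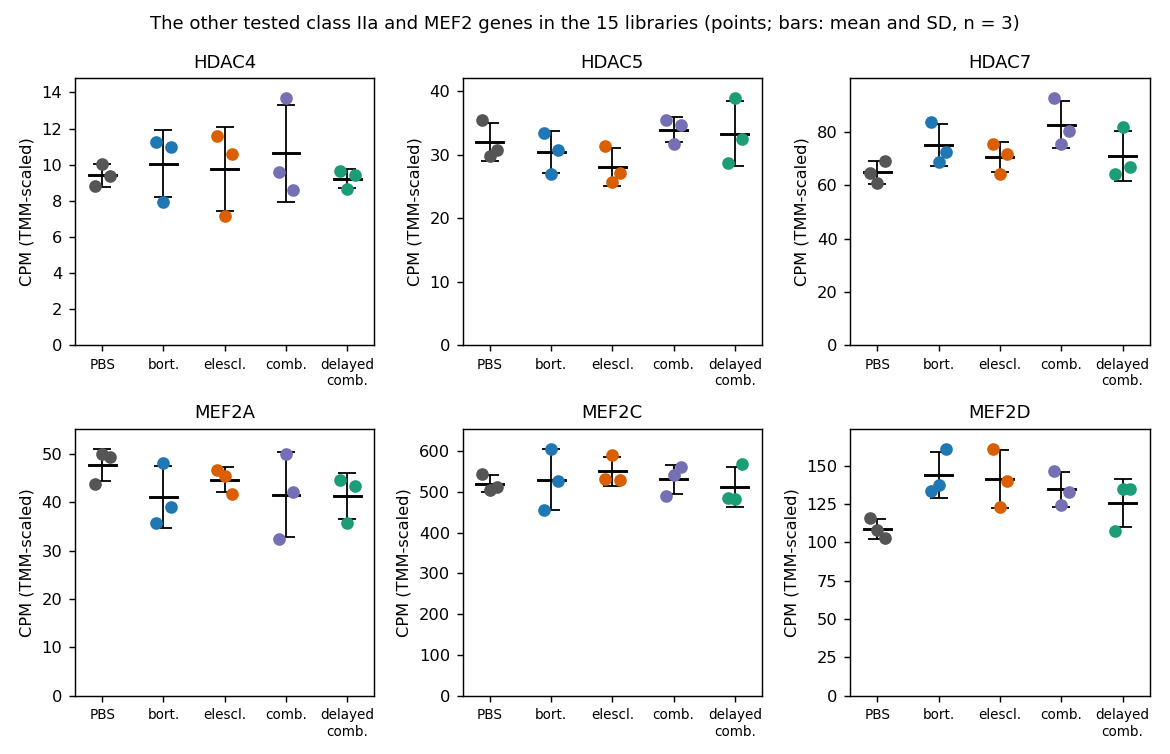
Levels in CPM (y axes, each from 0) of the other 6 fitted genes in the 5 groups (x axes: PBS, bortezomib, elesclomol, combination, delayed combination), with 1 point per library and bars for the mean and SD of 3 libraries. The MEF2D libraries of the bortezomib, elesclomol and combination groups all lie above the PBS libraries, and the MEF2C groups overlap.

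MEF2D (ENSG00000116604), a widely expressed MEF2 factor, lay above PBS in 3 treated groups. PBS libraries were at 116, 108 and 103 CPM (109 ± 6.54, SD, n = 3). Bortezomib libraries were at 133, 138 and 161 CPM (144 ± 14.99), elesclomol libraries at 161, 123 and 139.8 CPM (141 ± 18.9) and combination libraries at 147, 124 and 133 CPM (135 ± 11.3). All 9 of these lay above all 3 PBS libraries, whereas the delayed combination, at 107, 135 and 135 CPM (126 ± 15.8), overlapped them.

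The MEF2D differences from PBS did not pass the adjusted test. They were 0.40 ± 0.12 (log2, SE) with bortezomib (edgeR adjusted p = 0.419), 0.38 ± 0.12 with elesclomol (adjusted p = 0.460) and 0.31 ± 0.12 with the combination (adjusted p = 0.325). Libraries lay wholly above PBS for 10.5%, 9.55% and 11.3% of all genes in these comparisons, beside 1, 1 and 2 of the 6 members (MEF2D in each, and HDAC7 with the combination). The interaction for MEF2D was -0.47 ± 0.17 (edgeR adjusted p = 0.471). Limma voom called MEF2D with bortezomib (0.51, adjusted p = 0.0155) and in the interaction (-0.61, adjusted p = 0.0398).

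MEF2C (ENSG00000081189), the most abundant of the 8, was level across the groups in TMM-scaled CPM. Its mean was 520.2 ± 21.0 CPM with PBS, 529 ± 75.1 with bortezomib, 549.7 ± 34.4 with elesclomol, 531 ± 36.1 with the combination and 512 ± 49.3 with the delayed combination (SD, n = 3 each). In the edgeR fit the largest difference from PBS was 0.08 ± 0.11 (log2, SE), with elesclomol, and its 95% interval ran from -0.16 to 0.32. The intervals for the other 3 treated groups also held 0. MEF2C is GC-poor as well (39.0% GC). Over the alternative settings its difference from PBS ran from -0.08 to 0.29 (bortezomib), 0.02 to 0.18 (elesclomol), -0.03 to 0.33 (combination) and -0.11 to 0.24 (delayed combination). It was called in 0 of them, and the 0.24 came with the correction for GC content and length.

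MEF2A (ENSG00000068305), which is broadly expressed, was lower than the PBS mean in all 4 treated groups, with overlap in each. It stood at 47.7 ± 3.40 CPM with PBS, 41.0 ± 6.402 with bortezomib, 44.6 ± 2.59 with elesclomol, 41.5 ± 8.80 with the combination and 41.3 ± 4.75 with the delayed combination. The log2 difference was largest with bortezomib, at -0.22 ± 0.15 (edgeR adjusted p = 0.555). MEF2B was near 0: the bortezomib and combination libraries had 0 counts, which allows up to 3 counts a library, and the other groups had 0 to 2. It shares exon sequence with BORCS8-MEF2B on the same strand, so these counts do not show that MEF2B message was absent.

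HDAC7 (ENSG00000061273), a class IIa member known for its work in lymphocytes and vessels, was 64.6, 60.7 and 69.1 CPM with PBS and 92.6, 75.3 and 80.2 CPM with the combination. These sets did not overlap, and the difference was 0.35 ± 0.12 (log2, SE; edgeR adjusted p = 0.294). Limma voom called it (0.31, adjusted p = 0.0309). Bortezomib (74.98 ± 7.79 CPM), elesclomol (70.4 ± 5.62) and the delayed combination (71.0 ± 9.44) lay between, and each overlapped PBS.

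HDAC5 (ENSG00000108840) was at 32.0 ± 2.98 CPM with PBS, 30.4 ± 3.27 with bortezomib, 28.1 ± 2.93 with elesclomol, 34.0 ± 1.98 with the combination and 33.3 ± 5.17 with the delayed combination. Its order of groups resembled that of HDAC9 in that elesclomol was lowest and the combination higher, within a far smaller range. The combination libraries (35.5, 31.7 and 34.7 CPM) lay above the elesclomol libraries (31.4, 25.8 and 27.1 CPM), by 0.28 ± 0.13 (edgeR adjusted p = 0.409). HDAC7 did not overlap in that comparison either (0.23 ± 0.12, edgeR adjusted p = 0.448). Of all genes 8.57% lay wholly higher in that comparison, and 0% were called.

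HDAC4 (ENSG00000068024), the scarcest fitted gene with 1146 counts in all, ranged from 7.14 to 13.7 CPM. Its group means ran from 9.23 CPM with the delayed combination to 10.6 with the combination, and all groups overlapped PBS. The 95% interval of its difference from PBS was -0.36 to 0.55 with bortezomib and -0.40 to 0.50 with elesclomol, so a change of the size HDAC9 showed with elesclomol lies outside the interval.

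Among the treated groups themselves, 0 of the 6 were called in any comparison. With the combination against bortezomib 0 of 6 had libraries that did not overlap, against 8.19% of all genes either way, and 0% of all genes were called. The same held for the delayed combination against PBS (0 of 6, against 27.5%), against bortezomib (0 of 6, against 6.69%) and against the combination (0 of 6, against 7.59%), each with 0% called. In the interaction 0 of the 6 were called and 1 gene in all, or 0.00764%. The counts over all genes include HDAC9, whose own outcome is not reported.

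**Figure D3:**
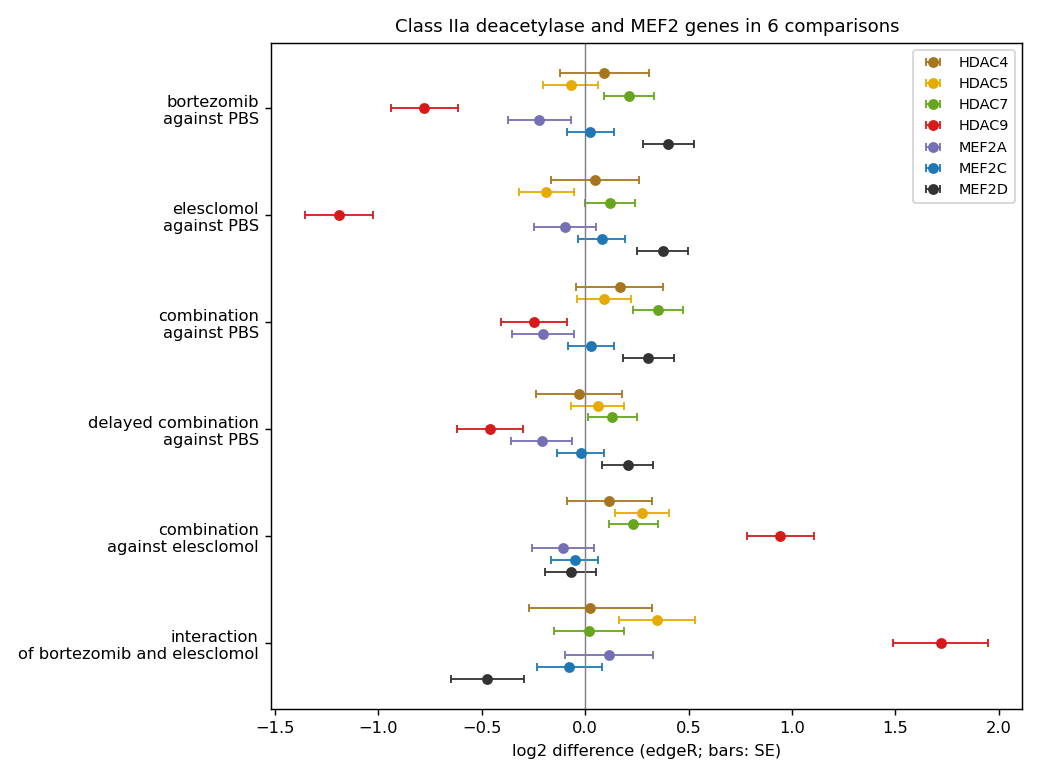
Log2 difference (x axis, edgeR fit, bars: SE) of the 7 fitted genes in 6 comparisons (y axis). HDAC9 lies at -0.78 and -1.19 for the single drugs, at 0.94 for the combination against elesclomol and at 1.72 in the interaction, while the other 6 stay between -0.47 and 0.40.

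Several of the genes share exon sequence with others, and the strand setting of the counting is not given in the sources used here, so reads from overlapping partners cannot be told apart. HDAC7 overlaps SLC48A1 on the opposite strand (1450 counts, against 8585 for HDAC7), MEF2A overlaps LYSMD4 (534 against 5001) and MEF2C overlaps MEF2C-AS1 (521 against 61567). MEF2B overlaps BORCS8-MEF2B on the same strand (1 count, against 9 for MEF2B), where no strand setting could separate their reads. HDAC9 shares no exon sequence with another gene in GENCODE 29. Its antisense gene HDAC9-AS1 had 0 counts in all 15 libraries, which allows up to 3 counts a library.

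Across the 15 libraries, which share groups and GC bias, the log2 level of MEF2D had a Pearson r of -0.63 with that of HDAC9 (Spearman rho -0.64), and without the 2 libraries farthest from the HDAC9 median r was -0.54. For HDAC5 r was 0.48 (rho 0.44). For MEF2C it was -0.19, for MEF2A 0.11, for HDAC7 -0.04 and for HDAC4 0.03. These are descriptions over 15 libraries in 5 groups, given with no test.

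The genes whose levels most resembled HDAC9 were taken from 8588 genes whose mean log2 CPM was 3 or more. The closest was FRMD6, known for its link to Hippo signalling (r = 0.89, and 0.83 without elesclomol 3 and elesclomol 1). It was at 33.0, 30.8 and 31.3 CPM with PBS, 22.2, 24.1 and 17.2 with bortezomib, 15.2, 14.98 and 14.97 with elesclomol, and 20.4, 31.7 and 20.6 with the combination. PHLDA1, a gene induced by growth factor signalling, followed (r = 0.88), at means of 96.8 CPM with PBS, 66.5 with bortezomib, 39.7 with elesclomol, 73.1 with the combination and 64.5 with the delayed combination. In both, all 3 elesclomol libraries lay below the other 12. Both were picked by their likeness to HDAC9, whose mean was lowest with elesclomol, so this is no separate result.

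GTF2H1, a subunit of the transcription and repair factor TFIIH, had r = 0.87, RNF103, a ubiquitin ligase, r = 0.83 and SPERT r = 0.83. Within groups, after each group's mean was removed, the 5 genes had r of 0.54 to 0.65. These values reuse the libraries by which the genes were ranked, so they are a description only. The genes least like HDAC9 were MTOR, the growth kinase (r = -0.91, and -0.88 within groups), B4GALT1, a galactosyltransferase (r = -0.90), and TENT5C, a poly(A) polymerase often altered in myeloma (r = -0.86). MTOR moved over a small range, from 105 ± 5.45 CPM with PBS to 119 ± 3.39 with elesclomol, whereas TENT5C went from 995 ± 18.9 to 1417 ± 60.8 CPM. The GC content of these 3 was 44.7% to 52.2%, against 40.2% in HDAC9. That of the 5 most like genes ran from 39.2% (RNF103) to 59.9% (SPERT), with PHLDA1 at 44.3%.

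**Figure D4:**
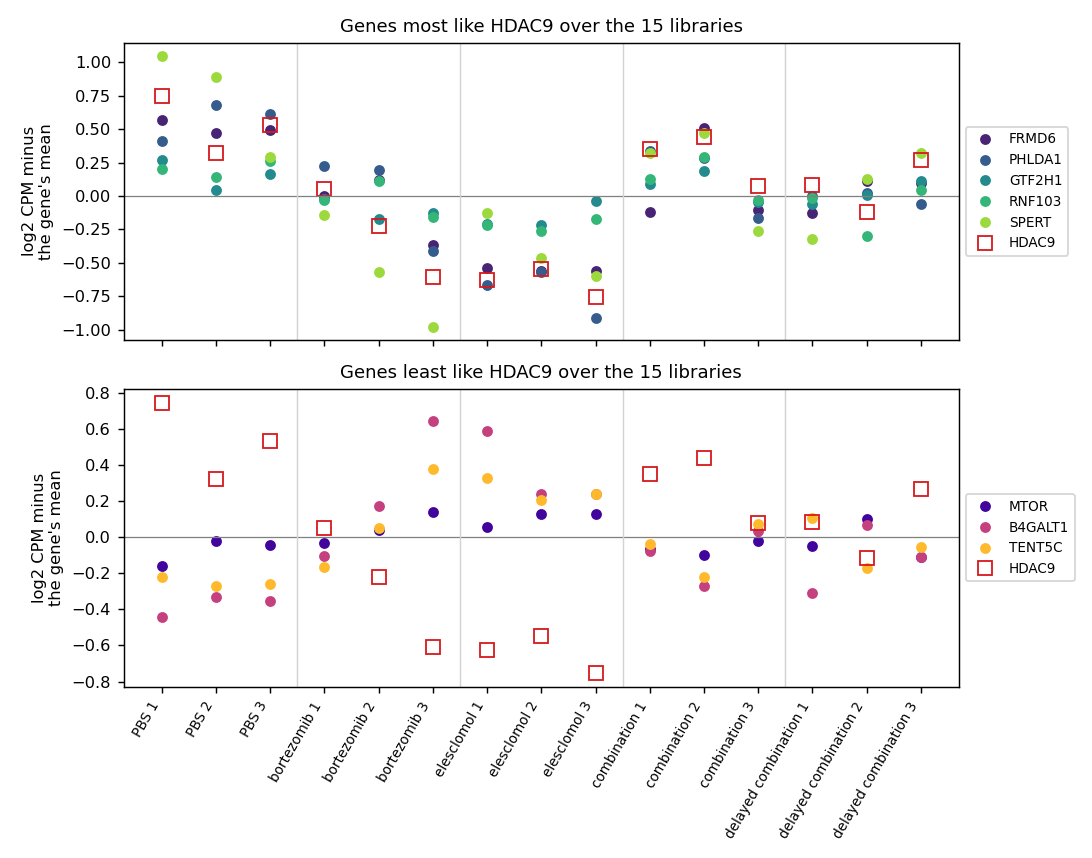
Log2 CPM minus each gene's own mean (y axis) in the 15 libraries (x axis) for the 5 genes most like HDAC9 (top) and the 3 least like it (bottom), with HDAC9 as open squares. The elesclomol libraries lie lowest for FRMD6 and PHLDA1, and the elesclomol mean is the highest of the 5 groups for MTOR, B4GALT1 and TENT5C. The genes were picked by likeness or unlikeness to HDAC9 over these same libraries.

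Of 14 deacetylase genes of the other classes, 12 were fitted and 0 were called by edgeR in any comparison, with 1 at an unadjusted p under 0.05 for each single drug against PBS. Over all 13085 genes such a p was reached by 1388 with bortezomib and 1056 with elesclomol, the background for the counts of the partner lists too. DESeq2 called 0 genes of this and of every following list except the MEF2 targets. Their median log2 difference from PBS was 0.07 with bortezomib and 0.04 with elesclomol, beside 0.02 and 0.00 over all genes. HDAC1, the highest of them, was at 57.1 ± 1.42 CPM with PBS and 55.8 ± 4.79 with elesclomol, and HDAC3, the catalytic partner of class IIa complexes, at 41.1 ± 3.56 and 44.5 ± 1.51 CPM.

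For the corepressor partners 12 of 12 were fitted and 0 called (1 and 2 at an unadjusted p under 0.05), with medians of 0.06 and 0.07 against PBS for bortezomib and elesclomol. TBL1XR1, which anchors the NCoR complex, was at 792 ± 19.7, 709 ± 181 and 812 ± 39.8 CPM in PBS, bortezomib and elesclomol, and the heterochromatin protein gene CBX5 at 230.4 ± 21.95, 217 ± 13.9 and 242 ± 26.8. For the kinases 16 of 18 were fitted and 0 called (4 and 1 at an unadjusted p under 0.05), with medians of 0.04 and 0.03. PRKD3, a PKD kinase, was at 1046 ± 9.34, 949.9 ± 189 and 1095 ± 127 CPM in those groups, and PRKD2 at 50.6 ± 3.78, 63.7 ± 12.2 and 65.9 ± 10.2.

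All 7 of the 14-3-3 genes lay above 0 with bortezomib and with elesclomol against PBS, but the medians were 0.11 and 0.08 and 0 were called. All 7 lay below 0 in the combination against bortezomib (median -0.15), where 47.3% of all genes lay above 0. YWHAE was at 227 ± 5.99 CPM with PBS, 276 ± 37.4 with bortezomib and 239 ± 31.2 with the combination, and YWHAG at 207 ± 9.60, 241 ± 28.9 and 216 ± 22.7. The phosphatases and proteases (8 of 8 fitted, 0 called) and the regulators and coactivators of MEF2 (15 of 17 fitted, 0 called) had medians of 0.04 to 0.08 for the 2 single drugs. EP300, a MEF2 coactivator, was at 106 ± 5.51 CPM with PBS and 128 ± 18.7 with elesclomol, CABIN1, a MEF2 corepressor, at 64.5 ± 0.770 and 75.7 ± 5.05, and PPP1CB, a phosphatase subunit, at 151 ± 7.65 and 163 ± 16.5.

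The MEF2 target genes had larger medians than the partner lists. Of 18 listed targets 13 were fitted. With bortezomib 6 of 13 lay below 0 (median 0.06), with elesclomol 8 (median -0.55), with the combination 10 (median -1.01) and with the delayed combination 11 (median -1.36), beside medians of 0.00 to 0.02 over all genes. HDAC9 was lowest with elesclomol and nearer to PBS with both drugs, whereas the target median lay farthest from 0 in the 2 groups given both. The median of the 6 fitted stromal markers was 0.42, 0.85, 0.73 and 1.45 in the 4 comparisons, and its part in the target medians was not tested.

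EdgeR called 0 targets in each of these 4 comparisons, with 1, 6, 8 and 9 at an unadjusted p under 0.05, and DESeq2 called 0, 3, 3 and 5. Over all 13085 genes 1388, 1056, 1784 and 1447 had such a p, and DESeq2 called 9, 49, 51 and 51. The DESeq2 calls were JUN, RHOB and EGR1 with elesclomol, JUN, RHOB and KLF6 with the combination, and JUN, RHOB, KLF6, EGR1 and FOS with the delayed combination, all lower, and these names were taken after their values were seen. Many listed targets, among them FOS, EGR1, JUN and NR4A1, are also immediate early genes that answer to many signals. The list was drawn up with earlier results of these data known, in which immediate early genes had already been described.

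JUN, a subunit of AP-1 and a classical MEF2 target, is given by library. Unlike the target median, which was 0.06 with bortezomib, JUN was lower in that group too. PBS libraries were at 433, 567 and 434 CPM and bortezomib libraries at 251, 233 and 246 CPM. Elesclomol libraries were at 140.3, 173 and 66.3 CPM, combination libraries at 199.7, 88.1 and 57.6 CPM and delayed combination libraries at 79.9, 54.8 and 93.1 CPM. Every treated library lay below every PBS library, at log2 differences of -0.97 ± 0.42, -1.92 ± 0.43, -2.05 ± 0.43 and -2.65 ± 0.44 in that order (edgeR adjusted p = 0.458, 0.204, 0.158 and 0.123). Of all genes 9.61%, 10.2% and 14.7% lay wholly below PBS with bortezomib, elesclomol and the delayed combination. The share for the combination is not reported here, so the JUN result in that group has no background.

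RHOB, a small GTPase, was at 254, 254 and 222 CPM with PBS and 105, 59.0 and 65.8 CPM with the delayed combination (-1.67 ± 0.28, edgeR adjusted p = 0.123). The 2 most abundant targets went different ways: MYC was at 486 ± 34.1 CPM with PBS and 596 ± 64.3 with the combination, and TRIB1, a pseudokinase, at 269 ± 66.4 and 157 ± 16.2 CPM. The targets that stood higher with elesclomol included BCL6, a repressor that also binds class IIa proteins, at 6.25, 1.40 and 2.43 CPM against 0.226, 1.22 and 0.692 with PBS. Its highest value was in elesclomol 1, the library with raised host markers, and its part in the result was not tested. JUN, RHOB and BCL6 were named after their values were seen. Of 15 targets with a promoter window, 3 (JUN, KLF2 and BDNF) held the MEF2 consensus.

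**Figure D5:**
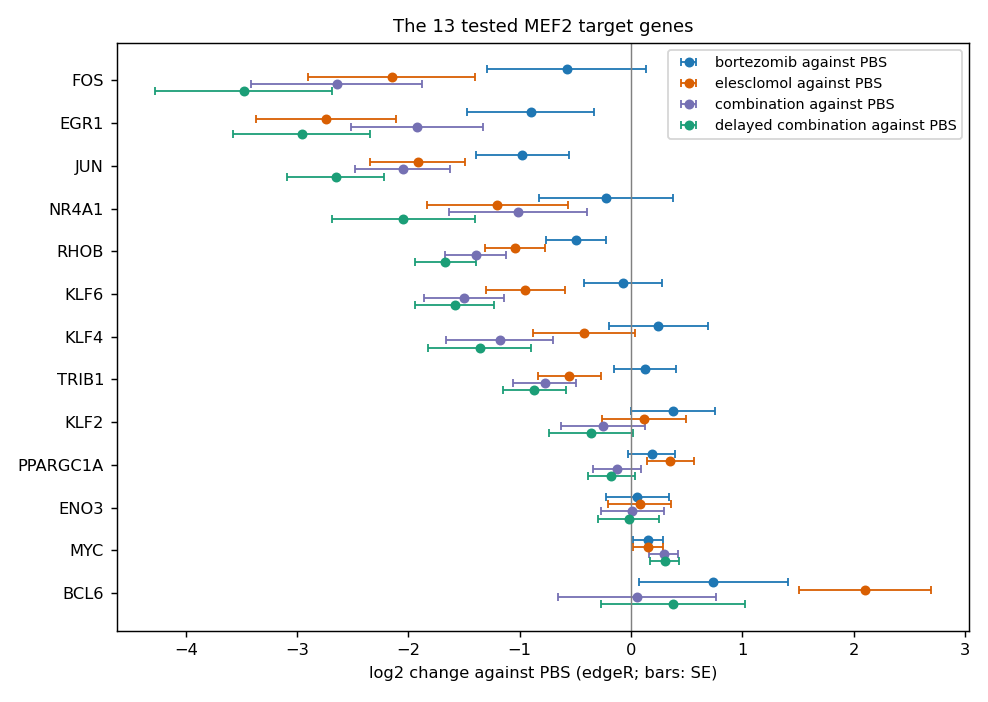
Log2 change against PBS (x axis, edgeR fit, bars: SE) of the 13 fitted MEF2 target genes (y axis) in the 4 treated groups. JUN lies at -0.97, -1.92, -2.05 and -2.65 in the order bortezomib, elesclomol, combination and delayed combination, BCL6 at 2.10 with elesclomol, and MYC near 0.

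Of 9 neighbours of HDAC9 on chromosome 7, 5 were fitted and 0 called in any comparison. All 5 lay below 0 against PBS with bortezomib (median -0.24), the combination (-0.45) and the delayed combination (-0.40). With elesclomol 4 lay below 0 and 1 above (median -0.12). Over all genes 52.6%, 51.7%, 51.3% and 50.7% lay above 0 in that order. Against PBS 1 (AHR) had an unadjusted p under 0.05 in each treated group. TWIST1, the transcription factor gene beside HDAC9, was at 4.63 ± 0.488 CPM with PBS, 4.495 ± 0.793 with bortezomib, 4.25 ± 1.58 with elesclomol and 3.64 ± 0.920 with the combination. MACC1 was at 263 ± 9.33, 223 ± 84.8, 327 ± 41.8 and 179 ± 80.7 CPM in those groups, so it was highest with elesclomol, where HDAC9 was lowest. Its lowest libraries were the GC-rich ones, combination 1 at 89.9, bortezomib 1 at 131 and delayed combination 2 at 134 CPM. In the same 3 libraries HDAC9 was the highest of its group in bortezomib 1 (70.5 CPM), the middle one in combination 1 (86.9) and the lowest in delayed combination 2 (62.8).

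POLR1F, an RNA polymerase I subunit, was at 93.3 ± 4.23, 85.3 ± 20.3, 88.8 ± 9.37 and 72.2 ± 19.8 CPM in the same 4 groups, and SNX13, a sorting nexin, at 31.3 ± 2.45, 23.5 ± 8.98, 28.7 ± 3.93 and 23.0 ± 9.08. AHR, the aryl hydrocarbon receptor, was lower in all 4 treated groups at an unadjusted p under 0.05: 13.2 ± 1.63 CPM with PBS, 9.23 ± 1.51 with bortezomib, 8.53 ± 1.90 with elesclomol, 9.58 ± 1.78 with the combination and 9.47 ± 2.47 with the delayed combination (edgeR adjusted p = 0.458, 0.499, 0.366 and 0.446). PRPS1L1 and TMEM196 were near 0 and FERD3L had 0 counts in all 15 libraries, a floor of 0.243 to 0.677 CPM for 3 counts.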

How the data were processed

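RNA from the marrow was made into stranded total RNA libraries after ribosomal depletion, per the labels' protocols. The deposited values are raw read counts per gene; STAR 2.5.4b, featureCounts 1.6.1 and GRCh37 are named in the submitters' processing notes. For the strand setting, annotation release and mouse reads, the choice is not given in the sources used here. Symbols, exon lengths and GC content came from GENCODE 29, which named 52338 of 57773 identifiers; the rest held 1.07% of counts.

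The 15 libraries were fitted in 1 model with edgeR 4.0.16 (R 4.3.3; TMM scaling, filterByExpr with a minimum count of 10, robust quasi-likelihood test), with Benjamini-Hochberg adjustment over 13085 genes and a threshold of 0.05. CPM are TMM-scaled. The fit was tested on simulated counts. Named genes were the 8 members, the 5 most and 3 least like HDAC9, the 2 highest in each list with any called, and the 9 chromosome 7 neighbours; other names are marked, and 1 gene the rule names is not reported here. The members and lists were chosen with earlier results of these data known. Alternatives were DESeq2 1.42.0, limma 3.58.1 voom, no filter, only the groups compared, a replicate block, a correction for GC content and length (loess span 0.3), omission of the 3 GC-rich libraries, a host marker covariate, library totals without mitochondrial genes and without TMM and omission of each library. Libraries of the same group all differed by more than sampling noise. The chi-square per degree of freedom was 2.25 to 3.24 between PBS libraries and 5.62 to 27.2 within the treated groups. The 1 model shares its estimate of the spread over all groups, and depth differed between groups too. Figures were drawn with matplotlib 3.10.9.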

Additional observations from a re-analysis of the deposited data

Results flagged for a closer look

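Of 25 genes examined, 6 had a drug effect that ran in opposite directions without and with the other drug, with no overlap between libraries in either contrast. The value given is the difference between the 2 log2 ratios of group mean CPM, and none of these differences was tested here. For HDAC9 it was 1.73 in both contrasts: elesclomol gave -1.19 without and 0.54 with bortezomib, and bortezomib gave -0.78 without and 0.94 with elesclomol. For the effect of bortezomib without and with elesclomol it was 1.27 for FRMD6 (-0.58 and 0.69), 1.42 for PHLDA1 (-0.54 and 0.88) and 0.585 for RNF103 (-0.23 and 0.36). It was -1.12 for B4GALT1 (0.65 and -0.47) and -0.674 for TENT5C (0.36 and -0.32). The 5 genes other than HDAC9 were chosen for their likeness or unlikeness to it over the same libraries, so they are not independent of it. HDAC9 itself was chosen by its measured level in these groups. The share of all fitted genes that meet the same rule was not computed. The count of 6 therefore has no background and does not show that the pattern is unusual.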

How the results depend on the processing

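HDAC9 kept its sign in every comparison and setting run, except that the combination against PBS turned to 0.050 after the GC content and length correction. That correction also moved bortezomib against PBS to -0.47, the delayed combination against PBS to -0.20 and the combination against elesclomol to 1.17. Voom moved bortezomib against PBS to -0.996 and the delayed combination against bortezomib to 0.62, and the latter was 0.59 without the 3 GC-rich libraries. With 1 library left out, HDAC9 against PBS ran from -0.95 to -0.62 (bortezomib), -1.29 to -1.08 (elesclomol), -0.36 to -0.14 (combination) and -0.56 to -0.35 (delayed combination), and the interaction from 1.57 to 1.89. The combination ran from 0.38 to 0.70 against bortezomib and 0.85 to 1.03 against elesclomol, and the delayed combination from 0.16 to 0.49 against bortezomib and -0.31 to -0.12 against the combination, which was -0.017 by voom. The cause of these shifts was not tested.

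Voom called 1 of the other members in bortezomib against PBS, 1 in the combination against PBS and 1 in the interaction. DESeq2 called 3 MEF2 targets with elesclomol, 3 with the combination and 5 with the delayed combination against PBS, and 3 with the delayed combination against bortezomib. With a replicate block, 1 target (RHOB) was called in the combination (-1.45, adjusted p = 0.0498) and 1 (RHOB) in the delayed combination (-1.70, adjusted p = 0.0100) against PBS, and HDAC9 in the interaction was 1.73. Same-numbered libraries deviated together in 1 of 10 pairs of groups, and the labels name no shared source. The pair was bortezomib and the combination, with r of 0.66, 0.52 and 0.12 for replicates 1, 2 and 3. Bortezomib 1 and combination 1 are both GC-rich libraries. HDAC9 in the combination against bortezomib was 0.54 with the replicate block.

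Signs near 0 turned for uncalled genes. Voom gave HDAC4 -0.029 in the combination and -0.20 in the interaction, and MEF2C 0.032 in the delayed combination, which was 0.0057 with no filter. The GC correction gave HDAC4 -0.049 with elesclomol, HDAC5 -0.052 in the combination and -0.022 in the delayed combination, and MEF2C 0.24 in the delayed combination. Without the 3 GC-rich libraries HDAC4 was -0.011 with bortezomib and 0.021 in the delayed combination, HDAC5 -0.050 and MEF2C 0.031 in the delayed combination. The host marker covariate gave HDAC4 -0.10 with elesclomol, and totals without mitochondrial genes and without TMM gave MEF2C -0.011 with bortezomib. Omitting 1 library gave ranges across 0 for HDAC4 (-0.011 to 0.24 bortezomib, -0.083 to 0.23 elesclomol, -0.064 to 0.28 combination, -0.073 to 0.0196 delayed, -0.20 to 0.15 interaction), HDAC5 (-0.15 to 0.011 bortezomib, -0.063 to 0.15 delayed), HDAC7 (-0.069 to 0.11 interaction), MEF2A (-0.045 to 0.27 interaction) and MEF2C (-0.082 to 0.12 bortezomib, -0.026 to 0.082 combination, -0.11 to 0.0197 delayed, -0.17 to 0.032 interaction). Totals without mitochondrial genes and without TMM moved the median of all genes by at most 0.058, in the interaction. That shift was not computed for the other settings.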
